A study of Mus musculus with 12 samples.

Results

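Mural cells wrap the vessel wall: smooth muscle cells around arterioles and venules, and pericytes around capillaries. The genes described here are 10 that mark these cells, chosen by name: 6 for the contractile and cytoskeletal apparatus of smooth muscle (Acta2, Myh11, Tagln, Cnn1, Mylk and Des) and 4 for receptors and signalling proteins of mural cells (Rgs5, Notch3, Cspg4 and Pdgfrb). All 10 were among the 26699 genes counted, and 8 of them passed the filter on low counts that left 11927 genes for testing. Tagln and Cnn1 did not pass it.

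The libraries came from macrophages, not from mural cells. Synovium, the lining tissue of the joint, was taken from wild-type C57BL/6 mice. The explants spent 4 h in culture with CGRP at 100 nM, a neuropeptide of sensory neurons that dilates vessels, or, by the study's methods, with vehicle. The libraries called control here carry the treatment label Control and the title word Healthy, and that these are the vehicle explants is taken from the methods. The tissue was then digested with collagenase, and macrophages with MHC class II were sorted into those without CD11c (IAIE) and those with it (CD11c). Each of the 4 groups (IAIE control, IAIE CGRP, CD11c control, CD11c CGRP) had 3 libraries, 12 in all. The labels give no age, and they do not say which animals, or how many, went into a library, so p-values measure the spread between libraries, which may be partly technical. In such bulk samples, fewer cells of a type and less RNA per cell cannot be told apart.

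Contraction of smooth muscle runs on actin and myosin. Myosin light chain kinase (Mylk) phosphorylates the light chains of smooth muscle myosin (heavy chain, Myh11), which pulls on smooth muscle actin (Acta2), while calponin (Cnn1) and transgelin (Tagln) bind the actin filaments and desmin (Des) forms intermediate filaments. The genes for these proteins are switched on by serum response factor (SRF) with myocardin, through DNA elements called CArG boxes. Pericytes depend on platelet-derived growth factor from the endothelium, which acts on the receptor Pdgfrb. Notch3 is a receptor of arterial mural cells, Cspg4 is the proteoglycan NG2, and Rgs5 damps G-protein signalling.

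The gene for smooth muscle actin shows such elements just before its start. The 120 bases before the RefSeq start of Acta2 (chr19:34255374-34255493, minus strand, GRCm38.p6) are printed with 2 CArG-like elements in capitals, because Acta2 is among the genes on which the results turn. The same stretch of Cspg4 (chr9:56864984-56865103, plus strand) stands beside it because Cspg4 is the member found in quantity in all 12 libraries.
Acta2: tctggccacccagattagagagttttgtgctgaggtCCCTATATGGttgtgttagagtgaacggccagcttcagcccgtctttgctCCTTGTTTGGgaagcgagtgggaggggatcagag
Cspg4: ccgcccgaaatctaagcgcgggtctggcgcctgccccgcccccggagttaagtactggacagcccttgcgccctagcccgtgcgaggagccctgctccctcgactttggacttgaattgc
The elements of Acta2 begin 84 and 34 bases before the start. They were found with the pattern CCNNNNNNGG with at least 5 of the 6 middle bases A or T, which reads the same on both strands. Windows from 250 bases before to 50 after the start were searched for 7 members (Acta2, Cnn1, Mylk, Des, Rgs5, Notch3 and Cspg4). No window was at hand for Myh11 and Tagln, and Pdgfrb was left out of the search. Of the 7 searched, only that of Acta2 held the pattern, against 9.98% of 32851 promoters. With all 6 middle bases A or T, 1.63% of the promoters and 0 of the 7 held it. The looser pattern was searched after the strict search had given no match.

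The sort markers fitted the labels. Itgax, which encodes CD11c, had 433 to 1022 counts in the 6 CD11c libraries and 4 to 36 in the 6 IAIE libraries. Ptprc (CD45, carried by all leukocytes) had 1279 to 2964 counts and the macrophage receptor Csf1r 1559 to 5200. Library totals were between 2127191 and 5649698 counts, and the floor of detection, 3 counts, corresponded to between 0.531 and 1.34 CPM (counts scaled to TMM library size).

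Smooth muscle genes were concentrated in 2 of the 12 libraries, CD11c CGRP libraries 1 and 3. Together these hold 22.5% of all counts. They held 673 of the 749 counts of Acta2, 1477 of the 1712 of Myh11, 261 of the 328 of Mylk and 67 of the 96 of Des. CD11c CGRP library 2, from the same group, had 0 counts of Acta2 and 0 of Myh11 in a total of 4329993.

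Acta2 had 408, 0 and 265 counts in CD11c CGRP libraries 1, 2 and 3, and 0, 7 and 6 in the CD11c controls. In the IAIE subset it had 25, 19 and 3 counts with CGRP and 13, 0 and 3 in control. The level of smooth muscle actin was thus high in only 2 libraries, and the CD11c groups overlapped because library 2 had none. Its mean was 41.6 ± 39.2 CPM (SD, n = 3) in CD11c CGRP and 0.970 ± 0.858 in CD11c control. Against the floor of library 2 (0.739 CPM), Acta2 was at least 105-fold higher in CD11c CGRP library 1 and at least 63.5-fold higher in library 3.

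Myh11, the most specific of the smooth muscle genes, followed the same libraries. It had 1070, 0 and 407 counts with CGRP and 0, 16 and 1 in control among CD11c libraries. In the IAIE subset it had 90, 95 and 19 counts with CGRP and 1, 3 and 10 in control, so that every IAIE CGRP count lay above every IAIE control count; scaled to library size, the lowest CGRP value, 3.56 CPM, lay below the highest control value, 4.45 CPM. CD11c CGRP libraries 1 and 3 were at least 276-fold and at least 97.5-fold above the floor of library 2.

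Mylk was detected in every library at 1 count or more, with 179, 2 and 82 counts in CD11c CGRP and 1, 2 and 5 in CD11c control. The IAIE libraries had 28, 7 and 1 counts with CGRP and 10, 6 and 5 in control. Des, which pericytes and smooth muscle share with other muscle, had 45, 3 and 22 counts in CD11c CGRP and 0 in all 3 CD11c controls. Those groups did not overlap, though CD11c CGRP library 2 was at the floor. IAIE libraries held 9, 0 and 4 counts of Des with CGRP and 0, 8 and 5 in control.

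Tagln and Cnn1 stayed near the floor. Tagln had 6, 1 and 3 counts in CD11c CGRP, 0 in the CD11c controls, 1, 0 and 1 in IAIE CGRP and 0, 8 and 0 in IAIE control. Cnn1 had 7, 0 and 6 counts in CD11c CGRP, 2, 0 and 2 in CD11c control, 7, 1 and 2 in IAIE CGRP and 0 in the IAIE controls. Per kilobase of annotated exon, Tagln stood at 0.576 CPM in CD11c CGRP library 1, where Acta2 stood at 35.4, Myh11 at 26.9, Mylk at 3.03, Des at 2.29 and Cnn1 at 0.488. The level of Tagln is uncertain, since 67.9% of its exon bases overlap genes on the opposite strand (Pcsk7 and Gm48529) and the strand setting of the counting is not given. For Mylk, Des and Notch3 that overlap was 6.85%, 5.86% and 6.03%.

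The mural receptors and signalling genes did not all follow the same libraries. Rgs5, a pericyte gene, had 11, 2 and 85 counts in CD11c CGRP and 1, 0 and 0 in CD11c control. In the IAIE subset it had 80, 6 and 4 counts with CGRP and 5, 0 and 6 in control. Its highest level, 21.1 CPM, was in IAIE CGRP library 1, ahead of 15.04 CPM in CD11c CGRP library 3, while CD11c CGRP library 1, the richest in Acta2 and Myh11, had 2.10 CPM.

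Notch3 had 60, 16 and 90 counts in CD11c CGRP and 4, 1 and 5 in CD11c control. These groups did not overlap, and library 2, which lacked Acta2 and Myh11, still lay above each control, at 3.94 CPM against at most 1.62. IAIE libraries had 16, 25 and 5 counts of Notch3 with CGRP and 4, 0 and 8 in control.

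Pdgfrb, the receptor that pericytes and fibroblasts share, had 16, 1 and 33 counts in CD11c CGRP and 0, 3 and 0 in CD11c control. The IAIE libraries had 7, 3 and 8 counts with CGRP and 0, 12 and 17 in control. Its highest level, 7.57 CPM, was in IAIE control library 3, so the control IAIE libraries reached as high as any CGRP library.

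Cspg4 was different from the other 9. It was present in all 12 libraries, from 75 to 416 counts, and CD11c CGRP libraries 1 and 3 held 518 of its 2511 counts, close to their share of all counts. In CPM it stood at 65.1, 47.6 and 49.0 in IAIE control, 109.5, 67.2 and 57.4 in IAIE CGRP, 30.4, 20.0 and 29.7 in CD11c control and 58.4, 50.5 and 37.5 in CD11c CGRP. The CD11c controls were the lowest 3 libraries. Over the 12 libraries, Spearman's rho between Cspg4 and each other member lay between 0.148 and 0.634, whereas Acta2 and Myh11 had a rho of 0.868. These values are descriptions, and the libraries share a depth and a preparation.

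**Figure D1:**
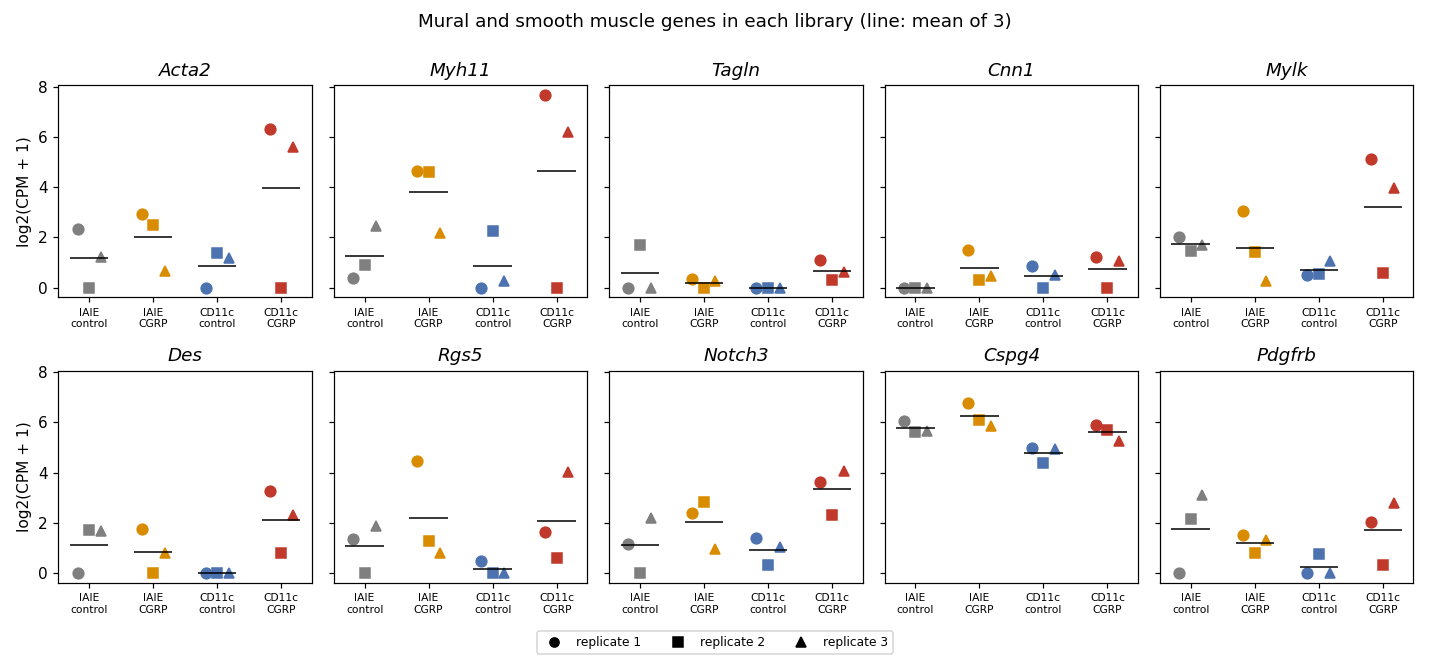
Level of each of the 10 members in each library, as log2(CPM + 1), by group; marker shapes give the replicate number and the line is the mean of the 3 libraries. Acta2, Myh11 and Mylk are high in CD11c CGRP libraries 1 and 3 and at or near 0 in library 2, while Cspg4 is present in all 12 libraries.

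Summed over the 10 members, the level was 402.2, 56.6 and 213.3 CPM in CD11c CGRP, 33.7, 26.7 and 33.7 in CD11c control, 178.8, 104.9 and 66.2 in IAIE CGRP and 75.3, 58.2 and 73.0 in IAIE control. Cspg4 made up most of that sum in 10 of the 12 libraries. Without it, the other 9 members summed to 343.8, 6.16 and 175.7 CPM in CD11c CGRP and to 3.25, 6.75 and 4.05 in CD11c control. The IAIE libraries then had 69.2, 37.7 and 8.82 CPM with CGRP and 10.2, 10.6 and 24.0 in control. CD11c CGRP library 2 thus lay within the range of the CD11c controls, and IAIE CGRP library 3 below each IAIE control.

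The first comparison asked how CGRP changed these genes in CD11c macrophages. Of the 8 members tested, 7 were higher with CGRP at a Benjamini-Hochberg adjusted p under 0.05 in edgeR's quasi-likelihood test, where 6.29% of all tested genes were called higher and 4.59% lower. The filter asked for 2.36 CPM, before TMM scaling, in 3 libraries. Myh11 met it in 5 CGRP and 2 control libraries, Notch3 in 5 and 1, and Acta2 in 4 and 1. Mylk met it in 3 and 1, Des and Rgs5 in 2 and 1 each, and Pdgfrb in 2 and 2. Only Cspg4, at 6 and 6, could have passed on control libraries alone. The count of calls is therefore not independent of the high CGRP values. The mean over libraries was higher with CGRP for all 10 members. The median log2 fold change of the 8 was 4.87, or 4.01 with Des, at 0 in the controls, set at its bound, against 0.00 over all tested genes.

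Among the contractile genes, the log2 fold change in CD11c cells was 5.95 ± 1.28 (SE) for Myh11 (adjusted p = 0.00387). It was 5.21 ± 1.21 for Acta2 (adjusted p = 0.00698) and 4.53 ± 1.11 for Mylk (adjusted p = 0.0108). Des was at least 5.17-fold higher with CGRP (adjusted p = 0.0201). Without CD11c CGRP library 1 the log2 fold changes of Myh11 and Acta2 were 4.60 and 4.38, and without CD11c control library 2 that of Myh11 was 9.06, all still past the threshold. That of Mylk without CD11c CGRP library 1 was 3.39 and not past it, and Des did not reach the filter without library 1 or without library 3.

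Among the receptors and signalling genes, Notch3 rose by 3.49 ± 0.91 on the log2 scale (adjusted p = 0.0162) and Cspg4 by 0.88 ± 0.25 (adjusted p = 0.0284). Rgs5, with 98 counts over the CGRP libraries and 1 over the controls, also passed (adjusted p = 0.0450). Its ratio of summed counts was 75.0 (exact 95% interval for counting error 13.2 to 2994). Pdgfrb, with 50 counts against 3 and a ratio of 12.8 (4.12 to 64.0), did not pass the threshold (adjusted p = 0.125). The CD11c groups did not overlap for Des, Rgs5, Notch3 and Cspg4, which is 4 of the 8, against 15.4% of all tested genes that were higher without overlap. For Rgs5 this rests on 2 counts in CD11c CGRP library 2 against 1 in CD11c control library 1. For Des it rests on 3 counts in CD11c CGRP library 2 against 0, so both lie at or under the floor of 3 counts. Notch3 and Cspg4 separated above the floor.

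The calls of Acta2, Myh11 and Mylk rest on few libraries. With CD11c CGRP libraries 1 and 3 both left out, the remaining CGRP library had 0, 0 and 2 counts of them. The fitted log2 fold changes of Acta2 and Myh11, -5.02 and -5.46, rest on those 0 counts, so their size is not measured. Their CD11c control means, 0.970 and 1.31 CPM, lay only a little above the floor of that library, 0.739 CPM. The log2 fold change of Mylk was -0.42. Those of Notch3 and Cspg4 stayed positive, at 2.06 and 0.93, and Rgs5 had 2.07. None of the 7 members then tested was called (0 of 7), in a design with 1 library left in that group, where the calls over all genes went from 1298 to 708. Leaving out library 1 alone left 4 members called (Acta2, Myh11, Notch3 and Rgs5), and leaving out library 3 alone also left 4 (Acta2, Cspg4, Myh11 and Mylk). Without CD11c control library 2, 2 members were called (Acta2 and Myh11), and the log2 fold changes of Mylk, Notch3 and Cspg4 were 4.26 (adjusted p = 0.0541), 2.95 (adjusted p = 0.0779) and 0.66 (adjusted p = 0.167). Without CD11c control library 3, 3 were called (Acta2, Myh11 and Mylk), with 3.63 for Notch3 (adjusted p = 0.0570) and 0.95 for Cspg4 (adjusted p = 0.0574). Calls over all genes fell to 1019 and 968 in these smaller designs. limma-voom, which gave each library a weight by its quality, called 3 (Cspg4, Des and Notch3), and DESeq2 called the same 7.

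In IAIE macrophages, the same treatment gave 0 of 8 members past the threshold, where edgeR called 5.32% of all tested genes higher and 3.89% lower. At an unadjusted p under 0.05 there were 2, Myh11 and Cspg4. The log2 fold change of Myh11 was 3.33 ± 1.39 (adjusted p = 0.159) and that of Cspg4 0.53 ± 0.24 (adjusted p = 0.207). Rgs5 had 2.52 ± 1.27, resting on library 1, Notch3 1.32 ± 0.91, Acta2 1.06 ± 1.29 and Mylk 0.34 ± 1.04. Des (-0.52 ± 1.23) and Pdgfrb (-1.37 ± 1.14) had negative estimates. DESeq2 and limma-voom also called 0.

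Whether the CGRP effect differed between the subsets was tested directly as an interaction, the CD11c effect minus the IAIE effect. None of the 8 members passed the threshold (0 of 8) in edgeR, DESeq2 or limma-voom, and 0.151% of all tested genes did in edgeR. At an unadjusted p under 0.05 there were 4 (Acta2, Mylk, Des and Pdgfrb). The estimate was 4.15 ± 1.87 for Acta2 (adjusted p = 0.549), 4.19 ± 1.54 for Mylk (adjusted p = 0.397) and 2.62 ± 2.23 for Myh11 (adjusted p = 0.825). The calls in CD11c cells and their absence in IAIE cells are therefore not shown to differ.

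**Figure D2:**
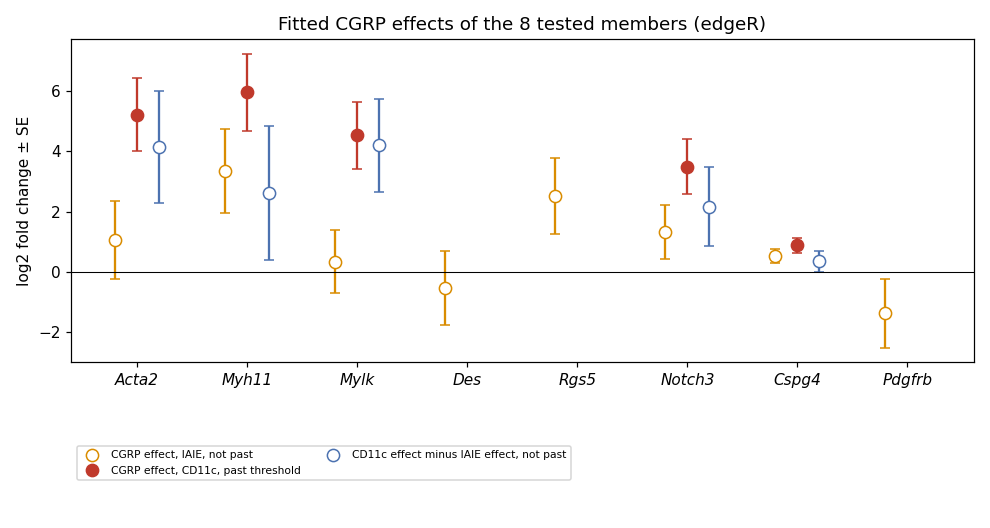
Log2 fold change (± SE) with CGRP of the 8 tested members in IAIE and in CD11c macrophages, and the difference of these effects, from the edgeR fit over all 12 libraries; filled points have an adjusted p under 0.05. Des, Rgs5 and Pdgfrb have no CD11c or difference estimate drawn, since their CD11c control libraries held at most 3 counts each; the other CD11c estimates run from 0.88 for Cspg4 to 5.95 for Myh11.

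Between the subsets, Cspg4 was the member that differed in control tissue. It was lower in CD11c than in IAIE macrophages, with means of 26.7 ± 5.81 and 53.9 ± 9.73 CPM (SD, n = 3) and a log2 difference of -1.02 ± 0.25 (adjusted p = 0.00657), and the groups did not overlap. It was 1 of 8 tested members called in this contrast, where 10.2% of all tested genes were called higher in CD11c cells and 10.9% lower. Without CD11c control library 2 it was not called (0 of 8). Pdgfrb had 3 counts over the CD11c controls and 29 over the IAIE controls (adjusted p = 0.0703), and Des had 0 and 13 (adjusted p = 0.0645).

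With CGRP, Acta2 was the 1 member of 8 called between the subsets, higher in CD11c cells by 3.46 ± 1.03 on the log2 scale (adjusted p = 0.0242), where 8.36% of all tested genes were called higher and 8.51% lower. Same-numbered libraries of the IAIE CGRP and CD11c CGRP groups deviated together from their group means. With the replicate block the Acta2 difference was 2.96 ± 1.09 and no longer past the threshold (adjusted p = 0.0713), and Cspg4 (-0.67 ± 0.24, adjusted p = 0.0597 without the block) was the 1 member called. With a block of treatment and replicate number together, the Acta2 difference was 2.82 ± 1.18 (adjusted p = 0.117) and Cspg4 was again the 1 member called. DESeq2 (adjusted p = 0.239), limma-voom (adjusted p = 0.444) and 1 surrogate variable (adjusted p = 0.341) did not call Acta2 either and called Cspg4 alone among the members. So did leaving out IAIE CGRP library 3 or CD11c CGRP library 1. Without IAIE CGRP library 2, or without CD11c CGRP library 3, 0 members were called, and without CD11c CGRP library 2 there were 3 (Acta2, Myh11 and Mylk).

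Other genes of the smooth muscle apparatus were counted from a list of 13, of which 6 could be tested. In CD11c cells edgeR called 5 of the 6 higher with CGRP, against 6.29% of all tested genes. These were Synpo2 (3.95 ± 1.02 on the log2 scale), Tpm2 (3.64 ± 1.04), Synm (3.15 ± 0.98), Smtn (2.03 ± 0.60) and Cald1 (2.02 ± 0.53), with adjusted p from 0.0152 to 0.0457. They encode proteins of actin filaments and of the filament network: synaptopodin 2, tropomyosin 2, synemin, smoothelin and caldesmon. Tpm1, a tropomyosin also made outside muscle, changed by 0.19 ± 0.15 (adjusted p = 0.524), and it was higher in CD11c than IAIE controls by 1.58 ± 0.16. The median log2 fold change of the 6 in CD11c cells was 2.59, against 0.00 over all tested genes. Synpo2 and Synm had at most 1.78 CPM in any control library, under the 2.36 CPM of the filter. The count of calls in this list is therefore not independent of the high CGRP values.

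Tpm2, Cald1, Smtn and Synpo2 were highest in the same 2 libraries. Tpm2 had 207, 6 and 53 counts in CD11c CGRP libraries 1, 2 and 3 and 7, 6 and 1 in CD11c control, Cald1 had 295, 24 and 139 against 19, 39 and 23, and Smtn had 108, 15 and 81 against 4, 12 and 22. Synpo2 was highest in library 3, with 51, 13 and 166 counts against 3, 3 and 4. Synm was spread more widely, with 48, 15 and 26 counts against 2, 5 and 0 in CD11c cells and 14, 21 and 6 in IAIE CGRP, where library 2 (5.08 CPM) lay above CD11c CGRP library 3 (4.60 CPM). Myl9, the smooth muscle myosin light chain, was too sparse for the filter and is named after its values were seen: it had 108, 0 and 68 counts in CD11c CGRP, 0, 0 and 6 in CD11c control and at most 6 elsewhere. In the IAIE subset 0 of the 6 tested genes were called by edgeR, and 0 had an unadjusted p under 0.05.

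**Figure D3:**
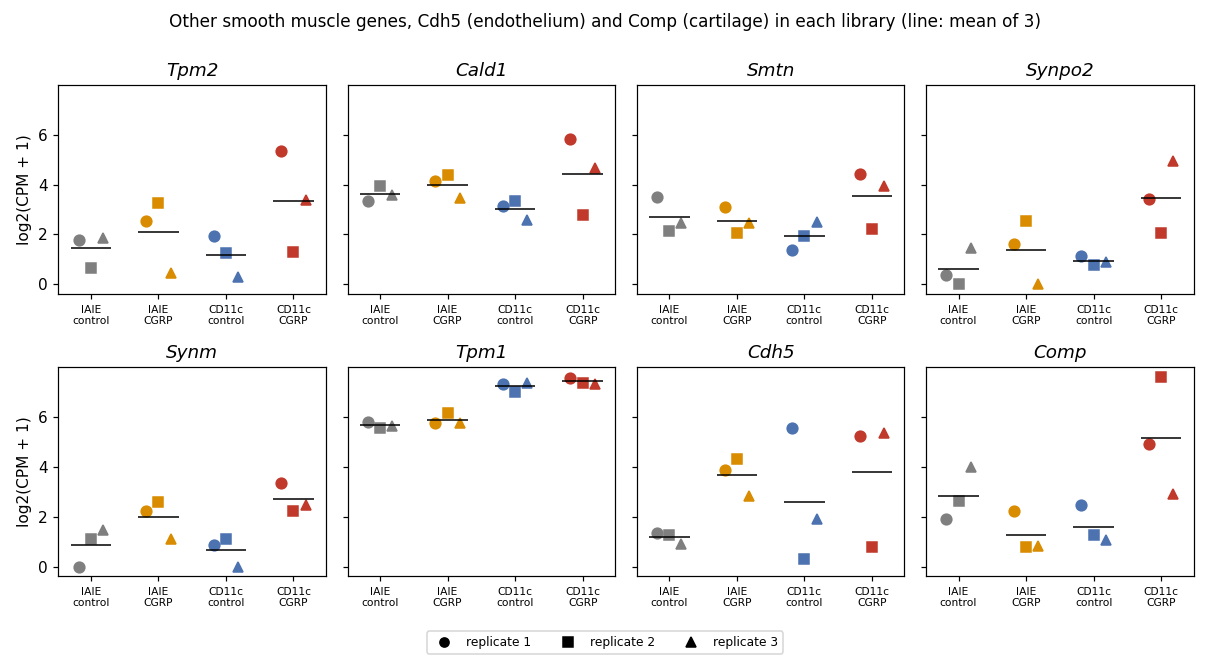
Level of 6 other smooth muscle genes, of the endothelial gene Cdh5 and of the cartilage gene Comp in each library, as log2(CPM + 1); shapes give the replicate number and lines the mean of 3. Tpm2, Cald1 and Smtn are highest in CD11c CGRP libraries 1 and 3, Tpm1 differs by subset, Cdh5 is also high in CD11c control library 1, and Comp peaks in CD11c CGRP library 2.

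The upstream factors were not called higher. Of SRF and its cofactors, 3 were tested: Srf changed by 0.06 ± 0.18 and Mrtfb by -0.04 ± 0.21 on the log2 scale with CGRP in CD11c cells, and Mrtfa, a cofactor of SRF, fell by 0.80 (SE 0.19, adjusted p = 0.00983). Mrtfa was also lower with CGRP in IAIE cells and higher in CD11c than IAIE cells in both treatments. Myocd, the cofactor of smooth muscle and heart, had between 0 and 8 counts per library, with 8, 1 and 4 in CD11c CGRP.

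Of 11 other pericyte genes, 3 could be tested and 0 were called with CGRP in CD11c cells by edgeR (Gucy1a1 3.09 ± 1.38, Steap4 0.42 ± 0.43 and Anpep -0.07 ± 0.16 on the log2 scale). Gucy1a1, a subunit of the nitric oxide receptor, had an unadjusted p under 0.05. It had 46, 0 and 54 counts in CD11c CGRP and 5, 0 and 2 in CD11c control. The pericyte channel genes Kcnj8 and Abcc9, named after their values were seen, had at most 4 counts and at most 29 counts, the latter in IAIE control library 3. Other untested genes of the list are likewise named after their values were seen. Mcam had 24, 10 and 25 counts in CD11c CGRP and 3, 2 and 9 in CD11c control. Gucy1b1 had 14, 0 and 13 against 2, 0 and 0, and Ndufa4l2 had 14, 1 and 6 against 0, 0 and 2. Vtn, Cox4i2 and Higd1b had at most 5 counts in any CD11c library. Steap4 was lower with CGRP in IAIE cells and lower in CD11c than IAIE controls.

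Pdgfb and Jag1, ligands of mural receptors, were present in every library, whereas Pdgfd had at most 4 counts in any library. Of the PDGF ligands and Pdgfra, 4 were tested and 0 were called with CGRP in either subset by edgeR. Pdgfb, a ligand of Pdgfrb, had 188, 74 and 202 counts in CD11c CGRP and 63, 87 and 122 in CD11c control. Its log2 fold change was 0.33 ± 0.28, with 0.72 ± 0.33 for Pdgfc and 0.45 ± 0.44 for Pdgfa. Pdgfa, Pdgfc and Pdgfra were lower in CD11c than IAIE controls. Of the Notch genes, 6 were tested, and Jag1, a ligand of Notch3, rose with CGRP in CD11c cells by 0.49 ± 0.15 (adjusted p = 0.0443), with 1375, 1572 and 1874 counts against 622, 932 and 1073 in control. Dll4, another Notch ligand, had 42, 10 and 76 counts in CD11c CGRP and 4, 9 and 1 in CD11c control, and was not called. Hes1 also had a higher mean with CGRP in CD11c cells, whereas Notch1, Notch2 and Jag2 had lower means. Heyl, a Notch target of mural cells named after its values were seen, had at most 2 counts in any library.

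Markers of other cell types give the setting of the mural counts. The summed level of 12 endothelial markers was 100.3, 22.7 and 120.2 CPM in CD11c CGRP libraries 1, 2 and 3, in step with the smooth muscle genes. It was highest, at 203.7 CPM, in CD11c control library 1, which had 0 counts of Acta2 and Myh11, and between 18.5 and 43.3 CPM in the other 8 libraries. Cdh5, the cadherin of endothelial junctions, had 189, 3 and 228 counts in CD11c CGRP and 112, 1 and 13 in CD11c control. Pecam1, shared with leukocytes, had 179, 29 and 234 counts in CD11c CGRP. Of the 9 endothelial markers tested, 1 rose with CGRP in CD11c cells, Cldn5, a tight junction gene (at least 5.79-fold, adjusted p = 0.0297), and 0 in IAIE cells by edgeR, where 4 had an unadjusted p under 0.05. Whether endothelial RNA had a part in the mural counts was not tested.

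Over all 12 libraries, the summed cartilage and fibroblast markers peaked in other libraries than the smooth muscle genes. The summed level of 6 chondrocyte markers was 253.4 CPM in CD11c CGRP library 2, the library without Acta2 and Myh11, against 44.3 and 8.67 in libraries 1 and 3 and at most 18.3 in the other groups. Comp, a cartilage and tendon matrix protein, had 787 counts there and 154 and 37 in libraries 1 and 3, and it was the 1 of 2 tested chondrocyte markers that rose with CGRP in CD11c cells (5.21 ± 0.99 on the log2 scale, adjusted p = 0.00139). The 11 fibroblast markers summed to between 209.2 and 2202 CPM and were highest in IAIE CGRP library 1 and IAIE control library 2, the latter with 2337 counts of Col1a1 and 0 of Acta2. In IAIE CGRP library 1, Prg4 alone gave 5416 of the 8364 counts. Pdpn, at 363 to 3096 counts in every library, gave most of the sum in many others. It was 514.6 of 572.1 CPM in IAIE CGRP library 2 and 384.4 of 461.2 CPM in CD11c CGRP library 3. In those libraries the sum mainly follows Pdpn. Among the CD11c libraries the sum was highest, at 768.1 CPM, in CD11c CGRP library 1, which was rich in Acta2 and Myh11. It was 705.4 CPM in CD11c CGRP library 2, which had 0 counts of both. Col3a1 (100.9 CPM) and Col1a1 (81.8 CPM) had their highest CD11c level in CD11c CGRP library 1, while Dcn was highest in CD11c CGRP library 2 (103.9 CPM). In CD11c cells 3 of 9 fibroblast markers rose with CGRP, Dcn by 4.88 ± 0.84, Col3a1 by 2.35 ± 0.75 and Pdpn by 0.88 ± 0.15. In IAIE cells 1 of the 9 was called higher and 3 lower by edgeR. The part of these cells in the mural counts was not tested.

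Skeletal muscle genes were low in every library. Ckm, muscle creatine kinase, had at most 1 count in any library, and the 10 skeletal muscle markers summed to between 8.11 and 20.4 CPM, with the highest value in IAIE control library 1. Of 3 tested, 0 were called with CGRP in either subset by edgeR, and 0 had an unadjusted p under 0.05. Of Schwann cell markers, 1 of 3 tested rose in CD11c cells (S100b, 69 counts over the CGRP libraries against 5), of adipocyte markers 0 of 1 (Fabp4, 0.48 ± 0.40), and of macrophage markers 1 of 10 rose (Fcgr1, 1.78 ± 0.25) and 1 fell (Lyz2, -0.70 ± 0.15). Of the 5 sort and leukocyte markers, H2-Ab1 fell by 0.66 and Itgax by 1.03 on the log2 scale.

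**Figure D4:**
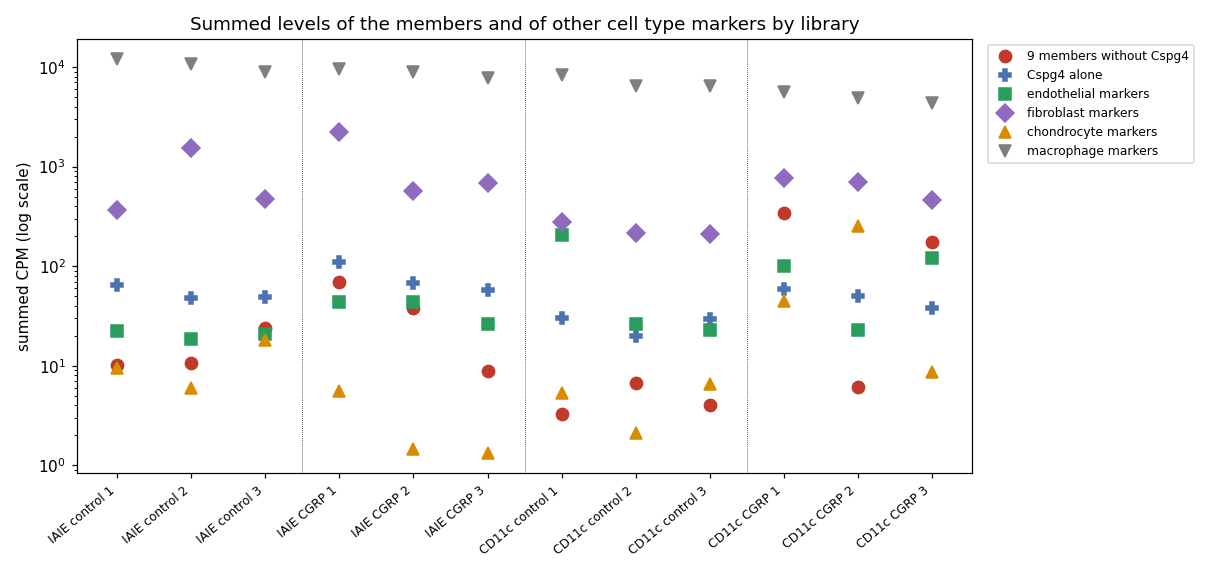
Summed CPM, on a log scale, of the 9 members without Cspg4, of Cspg4 alone and of 4 lists of other cell type markers, in each of the 12 libraries. The 9 members reach 343.8 and 175.7 CPM in CD11c CGRP libraries 1 and 3 and 6.16 in library 2, where the chondrocyte markers reach 253.4 CPM.

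The genes whose library pattern was most like the summed level of the 10 members were ranked by Pearson's r of log2(CPM + 1) over the 12 libraries, as a description. Kcne4, a potassium channel subunit, came first (r = 0.941). It was followed by Antxr1, Rgs16, Cldn5, Igfbp3, Cald1, Rgs4, Btbd3, Pcp4l1 and Sema3g (r = 0.876), and the median over 11919 genes was 0.02. Kcne4 had 59, 0 and 49 counts in CD11c CGRP libraries 1, 2 and 3, 0 in the CD11c controls, 11, 8 and 1 in IAIE CGRP and 1, 2 and 3 in IAIE control. Against the sum of the 9 members without Cspg4, r was 0.989 for Kcne4, and 8 of the 10 genes were among those already named, with Sparcl1 and Tpm2 in place of Rgs16 and Btbd3. Cldn5 and Cald1 belong to the lists above, and r is led by the 2 libraries that carry most of the counts.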

How the data were processed

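Each library has a deposited file of raw counts by gene symbol, made by the authors with Trim Galore, FastQC, HISAT2 (mm10) and featureCounts. Versions, annotation and strand setting are not given in the sources used here. Libraries were made from 5 ng of total RNA with a stranded pico-input kit and PCR. Floors cover counting error only. The combined table repeats the 12 libraries; 6 further columns were not used.

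Genes were kept with filterByExpr by group (minimum count 10, minimum total 15). Library sizes were scaled by TMM, and a quasi-likelihood model with a mean per group was fitted to all 12 libraries in edgeR 4.0.16 (R 4.3.3). The 5 contrasts were tested, with Benjamini-Hochberg adjustment over 11927 genes and a threshold of 0.05. The fit was tested on simulated counts with the same spread for every gene, which does not cover genes high in only some libraries of a group. Where a group was at 0 in all libraries, folds are bounds against a floor of 3 counts in each library; with few counts, ratios of summed counts carry exact 95% binomial intervals. Positions and exon overlaps are from GENCODE M21 (GRCm38), and promoters from RefSeq (GRCm38.p6).

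Alternatives were RLE, upper-quartile and no scaling, no filter, replicate blocks, 1 surrogate variable (sva 3.50.0), DESeq2 1.42.0, limma-voom 3.58.1, thinning, the compared libraries alone and leaving out each library. Named were all 10 members, up to 4 genes of each of 14 lists with the smallest adjusted p in CD11c cells, defining markers and the 10 most alike genes; Synm and Tpm1, the other tested smooth muscle genes, and a few sparse markers were added outside this rule after their values were seen. The result of the list of other leukocyte markers is not reported here. Members and lists were chosen with earlier results of these data known. Same-numbered IAIE CGRP and CD11c CGRP libraries deviated together (r = 0.343, 0.242 and 0.310 over 4106 genes). For IAIE control and CD11c control r was 0.226, 0.0755 and 0.188, and each other pair of groups held a negative r. Libraries of unlike number were not compared, so whether the numbers pair the libraries was not tested, and the labels name no pairing.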

Additional observations from a re-analysis of the deposited data

How the results depend on the processing

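With TMM replaced by RLE, upper-quartile or no scaling, the members called were the same in each contrast. The count of members called with CGRP in CD11c cells, 7, was 3 with only the compared libraries (3 members tested), 3 with limma-voom, 4 after thinning to the lowest total (4 tested), 0 without CD11c CGRP libraries 1 and 3 together (chosen after seeing the data; the lone library is assumed to vary like the others), and between 2 and 7 leaving out each library in turn. Without those 2 libraries the log2 fold changes of Acta2, Myh11 and Mylk were -5.02, -5.46 and -0.42. Those of Notch3, Rgs5 and Cspg4 stayed positive at 2.06, 2.07 and 0.93, and the subset difference of Acta2 with CGRP was -6.89. The values of Acta2 and Myh11 rest on 0 counts in the CD11c CGRP library left, so their size is not measured. In IAIE cells the count of 0 was 2 with every gene with at least 1 count, 1 with only the compared libraries, 1 without those 2 libraries, and 0 to 1 leaving out each library (1 without CD11c CGRP library 2). The interaction count of 0 was 4 with every gene. Between subsets in control the count of 1 was 3 with every gene, 2 with the explant replicate block, 3 with 1 surrogate variable, 3 with DESeq2 and 3 at an adjusted p under 0.1, and 0 to 3 leaving out each library (3 without IAIE control library 1). Between subsets with CGRP it was 4 with every gene, 4 at an adjusted p under 0.1 and 0 to 3 leaving out each library (2 without IAIE CGRP library 1). Of 11 other settings, 5 kept the Acta2 call there, 5 lost it (both blocks, 1 surrogate variable, DESeq2 and limma-voom) and 1 turned its sign; Cspg4 was called in its place under those 5 and after thinning. The cause of these moves was not tested, except that fewer members were tested where stated. Without Cspg4, the summed level was 10.2, 10.6 and 24.0 CPM in IAIE control, 3.25, 6.75 and 4.05 in CD11c control and 69.2, 37.7 and 8.82 in IAIE CGRP. The replicate block left 7 members called with CGRP in CD11c cells and 0 in IAIE cells, and beyond the subset difference with CGRP it changed no call. The explant block could not estimate the CGRP contrasts within a subset. Tagln exceeded 3 counts in 2 libraries and Cnn1 in 3, so depth limits what can be said of both.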
